A study of Homo sapiens with 12 samples.

Results

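Transcripts of 33 genes of homologous recombination, Fanconi and mismatch repair were followed in 2 human pancreatic cancer cell lines in hypoxia and normoxia. The genes were listed by current symbol, grouped into 7 repair routes, and read from Affymetrix probe sets that the platform annotation gives to exactly 1 gene, with the brightest probe set standing for the gene. Of the 33 genes, 28 had such a probe set, among 19775 genes measured in all. RBBP8, BRCA2, FANCA and FANCD2 had no probe set under their symbol in the annotation used, PMS2 had only 2 probe sets that it shares with another gene, and none of these 5 was analysed here. The arrays came from 4 groups of 3 replicates: L3.6pl cells in hypoxia, L3.6pl cells in normoxia, FG cells in hypoxia and FG cells in normoxia. Hypoxic cultures spent their last 24 h at 1% oxygen, normoxic ones were left untreated, and all 4 groups were plated from frozen cells and kept unpassaged in serum-containing medium, typically for 9 days. The series title describes the lines as differing in metastatic potential. The labels do not say whether replicates were separate cultures, so p-values measure only the spread between these arrays, which may be technical.

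Homologous recombination repairs a broken chromosome by copying the sister DNA: kinases signal the break, nucleases trim its ends, and the BRCA proteins load a recombinase that invades the intact strand. The Fanconi proteins act upstream of this at cross-linked DNA, where a core complex attaches ubiquitin to the FANCD2 and FANCI pair, and the MSH and PMS proteins correct mispaired bases after replication. Many of these genes are transcribed mostly in S and G2 phase, and hypoxia is known as a condition in which cultured tumour cells can lower recombination transcripts.

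The values are log2 of RMA intensities, changes are log2 fold changes ± standard error from 1 limma model of all 12 arrays, and a gene was called where its p, adjusted by Benjamini-Hochberg over all 19775 genes, was below 0.05. Arrays of 1 group correlated at a Pearson's r of 0.974 to 0.996 across genes, which are not independent replicates. All 10 hypoxia targets listed rose in both lines. The 5 epithelial markers listed averaged 11.8 to 12.1 per array on the log2 scale, and 11 stromal, endothelial and blood markers averaged 5.31 to 5.66, with 8 of the 11 below the median gene at 6.30; COL1A1 was the brightest of them at 9.72. In bulk RNA, fewer cells of a kind and less RNA per cell cannot be told apart.

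Normoxia replicate 1 stood apart in both lines for genes of cycling cells, and it touched part of the repair genes. The mean log2 intensity of 24 such genes was 8.89, 8.40 and 9.10 in L3.6pl hypoxia replicates 1 to 3, against 9.30, 10.15 and 10.08 in L3.6pl normoxia. In FG it was 9.33, 8.71 and 8.76 in hypoxia, against 8.04, 9.84 and 9.97 in normoxia. FG normoxia replicate 1 was thus the lowest array of all, below every hypoxic one, and L3.6pl normoxia replicate 1 was the lowest normoxic array of its line. In FG, 9 of the 28 repair genes lay more than 1 log2 unit lower in normoxia replicate 1 than in the mean of replicates 2 and 3, as did 3.19% of all genes; in L3.6pl none did, with 0.718% of all genes. Each result is therefore given with all arrays and without both normoxia replicates 1.

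**Figure D1:**
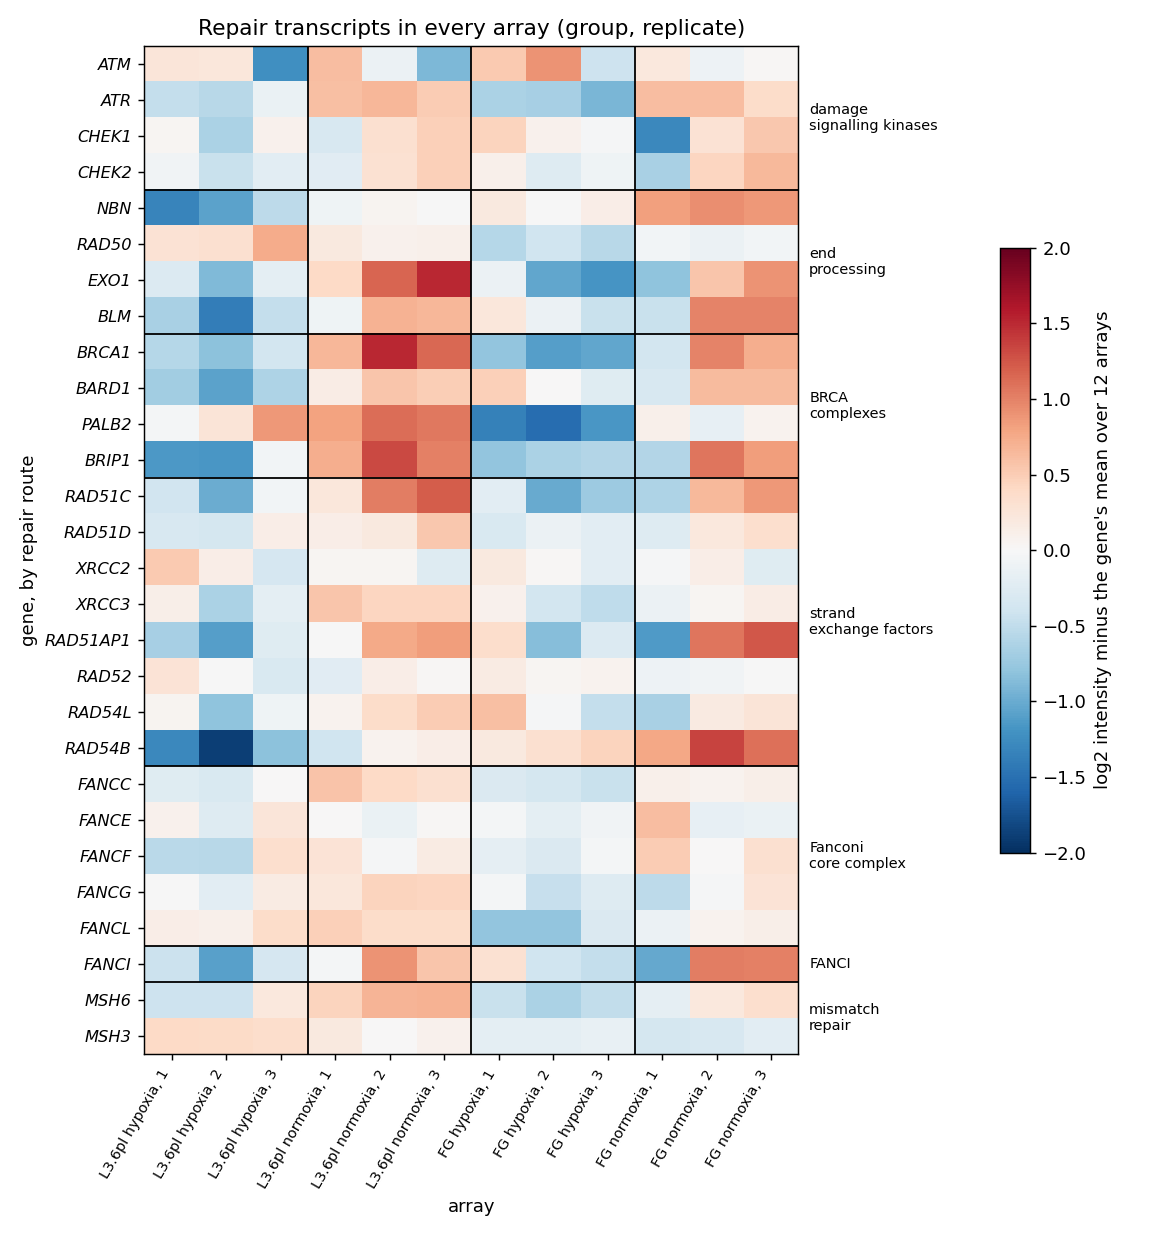
Log2 intensity of each of the 28 repair genes in every array, minus the gene's own mean over 12 arrays (red above it, blue below it), with genes ordered by repair route and arrays by group and replicate. ATR, NBN and FANCC differ little among the 3 normoxic arrays of a line, whereas FANCI and RAD51AP1 are low in FG normoxia replicate 1.

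Promoter windows are shown for 5 of these genes, which moved in different ways: FANCC and ATR fell in both lines, BRIP1 passed in L3.6pl, EXO1 passed only without the normoxia replicates 1, and MSH3 did not fall. Each window runs from 250 bases before to 49 bases after the first base of the transcript (RefSeq, GRCh38.p14), 5′ to 3′ on the gene's strand. FANCC is at chr9:95317660-95317959 on the minus strand (1 of its 2 windows), BRIP1 at chr17:61863479-61863778 on the minus strand, EXO1 at chr1:241847954-241848253 on the plus strand (1 of its 2 windows), MSH3 at chr5:80654402-80654701 on the plus strand and ATR at chr3:142578684-142578983 on the minus strand. Capitals mark matches, on either strand, to 2 kinds of motif known from cell cycle promoters: E2F-type letters TTTCGCGC, TTTGGCGC, TTTCCCGC or TTTGCCGC, and the CHR-type letters TTTGAA or TTCGAA. The 5 genes were picked after their values and matches were seen. Of 25 genes with a window, 5 held E2F-type and 3 CHR-type letters, so genes with a match are over-represented among those shown. For FANCC and EXO1, the window with more E2F-type and CHR-type matches is shown, and the other window of each held neither kind.
FANCC: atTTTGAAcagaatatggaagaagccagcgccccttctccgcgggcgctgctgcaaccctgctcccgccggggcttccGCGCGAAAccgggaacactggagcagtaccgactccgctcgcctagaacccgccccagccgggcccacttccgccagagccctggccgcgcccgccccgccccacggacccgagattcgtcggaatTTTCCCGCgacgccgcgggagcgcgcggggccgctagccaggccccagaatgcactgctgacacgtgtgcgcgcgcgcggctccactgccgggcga
BRIP1: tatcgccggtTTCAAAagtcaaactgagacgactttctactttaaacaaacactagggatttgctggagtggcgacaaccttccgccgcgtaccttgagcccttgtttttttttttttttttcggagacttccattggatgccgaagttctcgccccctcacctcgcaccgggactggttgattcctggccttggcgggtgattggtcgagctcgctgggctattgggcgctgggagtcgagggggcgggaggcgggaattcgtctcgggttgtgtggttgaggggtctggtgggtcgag
EXO1: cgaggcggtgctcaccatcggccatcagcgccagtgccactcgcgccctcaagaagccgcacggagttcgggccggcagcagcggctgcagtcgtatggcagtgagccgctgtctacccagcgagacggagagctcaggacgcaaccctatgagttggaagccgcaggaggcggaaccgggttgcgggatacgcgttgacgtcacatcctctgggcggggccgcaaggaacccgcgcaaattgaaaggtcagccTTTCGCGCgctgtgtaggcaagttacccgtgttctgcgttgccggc
MSH3: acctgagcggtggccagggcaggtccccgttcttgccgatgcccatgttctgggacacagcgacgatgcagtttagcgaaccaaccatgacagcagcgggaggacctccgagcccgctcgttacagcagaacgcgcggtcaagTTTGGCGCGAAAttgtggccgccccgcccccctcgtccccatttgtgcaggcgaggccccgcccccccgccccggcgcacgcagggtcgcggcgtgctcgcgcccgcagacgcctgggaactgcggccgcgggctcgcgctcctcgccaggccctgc
ATR: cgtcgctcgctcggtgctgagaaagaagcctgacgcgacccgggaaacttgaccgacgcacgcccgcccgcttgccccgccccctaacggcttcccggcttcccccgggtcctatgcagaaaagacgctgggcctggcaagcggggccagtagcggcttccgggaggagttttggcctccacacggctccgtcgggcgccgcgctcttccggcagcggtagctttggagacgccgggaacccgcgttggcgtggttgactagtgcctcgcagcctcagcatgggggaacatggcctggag
E2F-type letters stood in the FANCC window at bases 79 to 86 and 205 to 212, in the EXO1 window at bases 255 to 262, and as overlapping matches at bases 144 to 151 and 148 to 155 of the MSH3 window. CHR-type letters stood at bases 3 to 8 in FANCC and 11 to 16 in BRIP1, and ATR held neither kind. Windows were found for 25 of the 28 genes, 38 windows in all, and 5 of them (13.2%) held E2F-type letters, against 3.31% of all 35116 windows in the table. CHR-type letters were in 3 (7.89%), against 16.4% of all windows, and the hypoxia-response core ACGTG or GCGTG was in 25 (65.8%), against 48.4%. Of the 14 windows of genes that fell in hypoxia in either line 2 (14.3%) held E2F-type letters, as did 3 of the other 24 (12.5%). A match is a description of letters, and no match says only that they are not in this window.

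In hypoxia, a minority of the repair transcripts passed the test in each line, all of them lower with all arrays. In L3.6pl, 8 of 28 were called lower and 0 higher, against 2.97% and 3.89% of all genes; the median change was -0.62, against -0.02 over all genes, and 23 of 28 changes were negative. In FG, 8 of 28 were also called lower and 0 higher, against 6.47% and 4.24% of all genes, with a median of -0.45, against -0.03 over all genes, and 22 of 28 negative. ATR, BRCA1, FANCC, MSH6 and NBN passed in both lines, which is 5 of 8 in each, with NBN called in 1 of its 5 probe sets. The share of all genes that passed in both lines was not counted. The tests of the lines also share 1 estimate of the spread, so this overlap is given as a description only. BARD1, BRIP1 and RAD54B passed in L3.6pl alone and FANCL, PALB2 and RAD50 in FG alone. In the limma fit of all arrays none of these differences between lines passed its own test. That of RAD50 passed with array weights (adjusted p = 0.0243). It also passed with a replicate block within each oxygen condition (adjusted p = 0.0465), a fit chosen after the data were seen. Hypoxic and normoxic arrays did not overlap for 17 members lower and 2 higher in L3.6pl, against 12.8% and 11.5% of all genes, and for 11 lower and 2 higher in FG, against 17.1% and 10.9%.

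**Figure D2:**
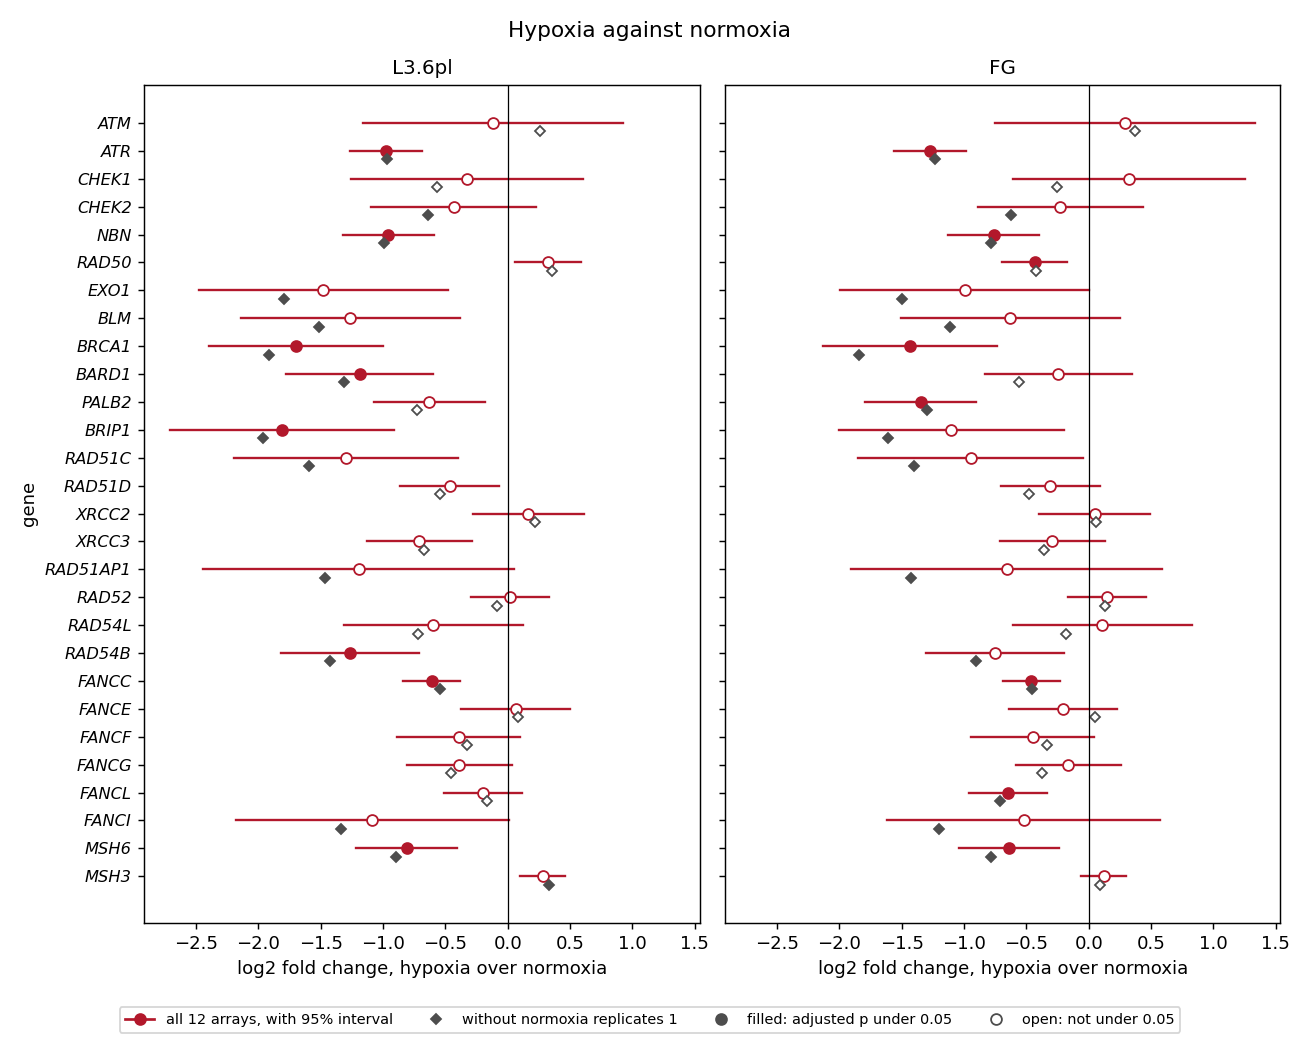
Log2 fold change of hypoxia over normoxia for each repair gene in L3.6pl (left) and FG (right); circles are the fit of all 12 arrays with 95% intervals, diamonds the fit without normoxia replicates 1, and filled marks passed at an adjusted p below 0.05. Filled circles lie left of zero in both panels, and more diamonds than circles are filled.

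Among the damage signalling kinases, ATR, the kinase that answers stalled replication, fell in both lines. In L3.6pl, ATR had log2 intensities of 8.45, 8.38 and 8.80 in hypoxia, against 9.53, 9.59 and 9.44 in normoxia. In FG, it had 8.30, 8.27 and 8.03 in hypoxia, against 9.55, 9.56 and 9.31 in normoxia. Every hypoxic array lay below every normoxic one, and normoxia replicate 1 sat with the others. The change was -0.98 ± 0.13 in L3.6pl (1.97-fold lower, adjusted p = 0.00193) and -1.27 ± 0.13 in FG (2.42-fold lower, adjusted p = 0.000299). It was called in all 12 fits that left out 1 array in both lines, and all 3 ATR probe sets were negative, 2 of them called, in each line. ATM, the kinase that answers double-strand breaks, did not pass at -0.12 ± 0.47 in L3.6pl and 0.29 ± 0.47 in FG. Its 6 probe sets disagreed: a dimmer one was called lower in FG, at -1.21 ± 0.32 (adjusted p = 0.0357 over all probe sets), and stood at -0.84 ± 0.32 in L3.6pl (adjusted p = 0.171). The checkpoint kinase CHEK1, which ATR activates, was at -0.33 ± 0.42 in L3.6pl and 0.32 ± 0.42 in FG, and CHEK2, which ATM activates, at -0.43 ± 0.30 and -0.23 ± 0.30 in the same order. Without the normoxia replicates 1, CHEK2 was called at -0.64 in L3.6pl (adjusted p = 0.0295) and -0.63 in FG (adjusted p = 0.0311), and CHEK1 was called in neither line, with a change of -0.25 in FG.

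Of the end processing genes, NBN gave a fall that rests on 1 probe set. NBN is the sensor subunit that joins RAD50 and a nuclease at the break. In L3.6pl its brightest probe set read 8.40, 8.64 and 9.19 in hypoxia, against 9.64, 9.76 and 9.71 in normoxia. In FG it read 9.91, 9.71 and 9.85 in hypoxia, against 10.54, 10.64 and 10.58 in normoxia. The groups did not overlap, and the changes were -0.96 ± 0.17 in L3.6pl (adjusted p = 0.00722) and -0.76 ± 0.17 in FG (adjusted p = 0.0146). The other 4 NBN probe sets ran between -0.17 and 0.09 in L3.6pl and between 0.04 and 0.27 in FG, and none of them was called. With the mean of all 5 probe sets the change was -0.19 in L3.6pl and -0.05 in FG, with no call in either line. The FG call was also lost without FG hypoxia replicate 2 (adjusted p = 0.0679) or FG normoxia replicate 2 (adjusted p = 0.0535). Which transcripts each NBN probe set detects was not analysed here.

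**Figure D3:**
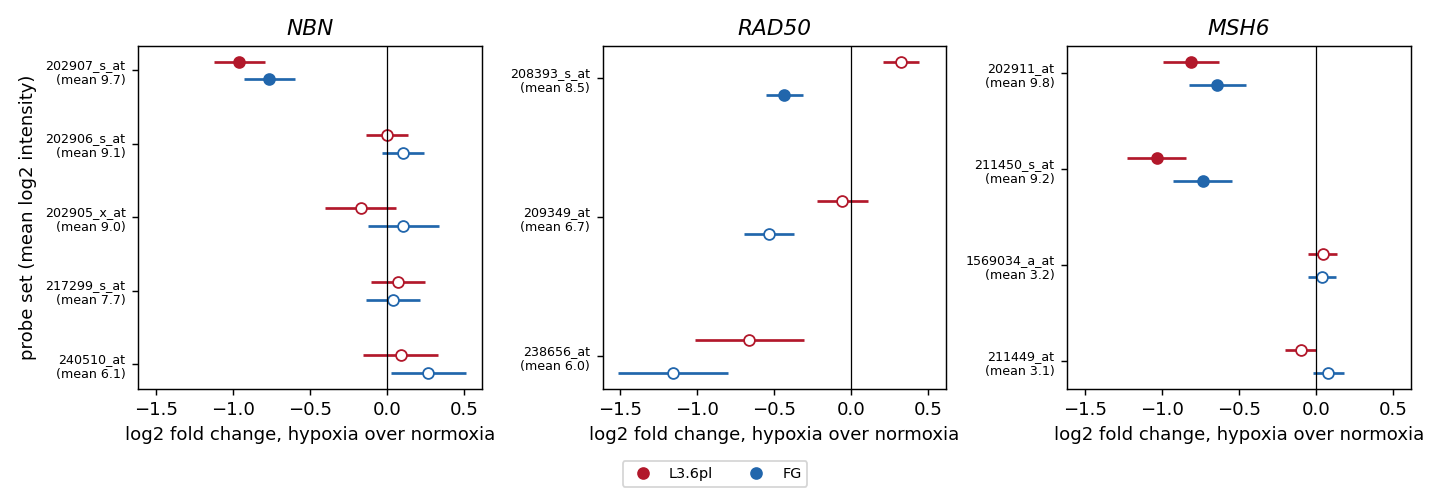
Log2 fold change of hypoxia over normoxia, with standard error bars, for each 1-gene probe set of NBN, RAD50 and MSH6 in L3.6pl (red) and FG (blue), ordered by mean log2 intensity with the brightest at the top; filled circles passed at an adjusted p below 0.05 over all probe sets. Only the top NBN probe set is called, whereas the 2 bright MSH6 probe sets are both called in both lines.

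RAD50, the long coiled ATPase of the same complex, had changes of opposite sign in the lines in its brightest probe set only. In L3.6pl it had 8.77, 8.81 and 9.22 in hypoxia, against 8.68, 8.57 and 8.58 in normoxia. In FG it had 7.91, 8.08 and 7.93 in hypoxia, against 8.42, 8.37 and 8.43 in normoxia. All hypoxic arrays were above the normoxic ones in L3.6pl and below them in FG. The change of 0.32 ± 0.12 in L3.6pl did not pass (adjusted p = 0.14), and the fall of -0.43 ± 0.12 in FG did (adjusted p = 0.0416). The FG call was lost in 9 of 12 fits without 1 array, with adjusted p up to 0.124 without FG hypoxia replicate 1, and without both normoxia replicates 1 (adjusted p = 0.0922). In FG all 3 RAD50 probe sets were negative, whereas in L3.6pl the other 2 stood at -0.06 and -0.66, against the sign of the brightest.

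EXO1, an exonuclease of both resection and mismatch repair, and BLM, a helicase that helps resection and dissolves crossed strands, were lower without passing in the fit of all arrays. EXO1 had 6.46, 5.85 and 6.54 in L3.6pl hypoxia, against 7.13, 7.90 and 8.25 in L3.6pl normoxia, and 6.62, 5.70 and 5.56 in FG hypoxia, against 5.94, 7.29 and 7.64 in FG normoxia. The groups separated in L3.6pl, and in FG normoxia replicate 1 fell among the hypoxic arrays. The changes were -1.48 ± 0.45 in L3.6pl (adjusted p = 0.0804) and -0.99 ± 0.45 in FG (adjusted p = 0.216). Without the normoxia replicates 1, EXO1 was called at -1.79 in L3.6pl (adjusted p = 0.0104) and -1.50 in FG (adjusted p = 0.0197). BLM moved in the same way and was called without them at -1.52 in L3.6pl (adjusted p = 0.0093) and -1.11 in FG (adjusted p = 0.0285).

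The BRCA complexes had the lowest median of the routes with more than 1 measured member, -1.44 in L3.6pl and -1.22 in FG, and all 4 members were negative in both lines. BRCA1 is the ubiquitin ligase and scaffold that promotes resection and loading of the recombinase. In L3.6pl it had 6.88, 6.64 and 7.09 in hypoxia, against 8.13, 8.96 and 8.61 in normoxia. The FG arrays had 6.67, 6.35 and 6.42 in hypoxia, against 7.10, 8.45 and 8.18 in normoxia. No groups overlapped, and normoxia replicate 1 was the lowest normoxic array in each line. BRCA1 fell by 1.70 ± 0.32 in L3.6pl (3.24-fold, adjusted p = 0.0103) and by 1.43 ± 0.32 in FG (2.7-fold, adjusted p = 0.0161), and without the normoxia replicates 1 the changes were -1.92 (adjusted p = 0.000662) and -1.84 (adjusted p = 0.000737) in the same order. Its second probe set was negative too, at -0.91 in L3.6pl and -0.49 in FG. The L3.6pl call was lost without L3.6pl hypoxia replicate 2 (adjusted p = 0.0522) or normoxia replicate 2 (0.056), and the FG call without FG hypoxia replicate 2 (0.0689), normoxia replicate 2 (0.0614) or normoxia replicate 3 (0.057).

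PALB2, the bridge between BRCA1 and BRCA2, was not low in the normoxia replicate 1 of FG. It had 7.90, 8.20 and 8.80 in L3.6pl hypoxia, against 8.74, 9.05 and 8.99 in L3.6pl normoxia. It had 6.59, 6.41 and 6.77 in FG hypoxia, against 8.03, 7.77 and 8.0 in FG normoxia. In FG the groups lay well apart and normoxia replicate 1 was the highest array, whereas in L3.6pl hypoxia replicate 3 reached into the normoxic range. The fall in FG was -1.35 ± 0.20 (2.54-fold, adjusted p = 0.00244), called in all 12 fits without 1 array, and the change in L3.6pl was -0.63 ± 0.20 (adjusted p = 0.0935). Without L3.6pl hypoxia replicate 3 the L3.6pl change was called too, at -0.88 in the limma fit (adjusted p = 0.00488). That PALB2 passed in FG alone thus turns on this array. BRIP1, the helicase that binds BRCA1, had 6.07, 6.05 and 7.17 in L3.6pl hypoxia, against 7.95, 8.54 and 8.24 in L3.6pl normoxia. In FG, BRIP1 had 6.44, 6.60 and 6.64 in hypoxia, against 6.65, 8.29 and 8.05 in normoxia. The groups did not overlap, although FG normoxia replicate 1 lay just above the highest hypoxic array. BRIP1 was called in L3.6pl at -1.81 ± 0.41 (3.51-fold lower, adjusted p = 0.0239) and not in FG at -1.10 ± 0.41 (adjusted p = 0.121), where it passed without the normoxia replicates 1 (-1.61, adjusted p = 0.0111). Both of its probe sets were negative in both lines.

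BARD1, the partner that BRCA1 needs to act as a ligase, had 7.72, 7.36 and 7.81 in L3.6pl hypoxia, against 8.57, 8.97 and 8.91 in L3.6pl normoxia. In FG, BARD1 had 8.89, 8.42 and 8.18 in hypoxia, against 8.11, 9.06 and 9.06 in normoxia. The groups were apart in L3.6pl, and in FG normoxia replicate 1 was the lowest array of all 6. The change was -1.19 ± 0.27 in L3.6pl (adjusted p = 0.024) and -0.24 ± 0.27 in FG (adjusted p = 0.682), and without the normoxia replicates 1 it was -1.31 (adjusted p = 0.0057) and -0.56 (adjusted p = 0.116) in the same order. The L3.6pl calls of BARD1 and BRIP1 were each lost without L3.6pl hypoxia replicate 1 or 2 or L3.6pl normoxia replicate 2 or 3, with adjusted p up to 0.105 for BARD1 and 0.107 for BRIP1.

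The strand exchange factors were mixed. RAD54B, a DNA translocase of recombination, had 6.45, 5.85 and 6.91 in L3.6pl hypoxia, against 7.34, 7.81 and 7.86 in L3.6pl normoxia. In FG, RAD54B had 7.93, 8.06 and 8.18 in hypoxia, against 8.51, 9.08 and 8.83 in normoxia. The arrays did not overlap in either line, and the change passed in L3.6pl at -1.26 ± 0.25 (2.4-fold lower, adjusted p = 0.0135) and not in FG at -0.75 ± 0.25 (adjusted p = 0.0843), where it passed without the normoxia replicates 1 (-0.90, adjusted p = 0.0499). The L3.6pl call was lost without L3.6pl normoxia replicate 2 (adjusted p = 0.0652) or 3 (adjusted p = 0.0565). RAD51C, a recombinase paralog that stabilises the filament, had 8.47, 7.86 and 8.79 in L3.6pl hypoxia, against 9.07, 9.88 and 10.05 in L3.6pl normoxia. In FG, RAD51C had 8.64, 7.84 and 8.13 in hypoxia, against 8.24, 9.49 and 9.72 in normoxia. Only in FG did normoxia replicate 1 lie within the hypoxic range, and the changes were -1.30 ± 0.41 in L3.6pl (adjusted p = 0.0879) and -0.95 ± 0.41 in FG (adjusted p = 0.187). Without the normoxia replicates 1, RAD51C was called at -1.60 in L3.6pl (adjusted p = 0.00989) and -1.40 in FG (adjusted p = 0.0158), and RAD51AP1, an accessory factor of strand invasion, at -1.46 (adjusted p = 0.0229) and -1.42 (adjusted p = 0.0254) in the same order. The remaining 5 factors, RAD51D, XRCC2, XRCC3, RAD52 and RAD54L, were called in neither line with or without those arrays. In the fit of all arrays they ran between -0.71 and 0.17 in L3.6pl and between -0.31 and 0.15 in FG. The lowest was XRCC3 in L3.6pl, at -0.71 ± 0.19 (adjusted p = 0.0512). A dimmer RAD51D probe set was called lower in L3.6pl, at -0.51 ± 0.12 (adjusted p = 0.0383 over all probe sets). In FG the same probe set stood at -0.39 ± 0.12 (adjusted p = 0.072).

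In the Fanconi core complex, FANCC, a core subunit, fell by a small and even amount. It had 5.94, 5.88 and 6.19 in L3.6pl hypoxia, against 6.75, 6.58 and 6.51 in L3.6pl normoxia. It had 5.89, 5.83 and 5.74 in FG hypoxia, against 6.29, 6.25 and 6.30 in FG normoxia. The groups were apart in both lines and normoxia replicate 1 sat with the others. The change was -0.61 ± 0.10 in L3.6pl (adjusted p = 0.00653), called in all 12 fits without 1 array, and -0.46 ± 0.10 in FG (adjusted p = 0.0173), lost without FG hypoxia replicate 2 (0.0603) or 3 (0.0552) or FG normoxia replicate 3 (0.0534). Its other 2 probe sets, dimmer and not called, ran from -0.37 to -0.16 in L3.6pl and from -0.23 to 0.01 in FG. FANCL, the ligase subunit that modifies FANCD2 and FANCI, had 9.72, 9.69 and 9.96 in L3.6pl hypoxia, against 10.06, 9.95 and 9.96 in L3.6pl normoxia. In FG, FANCL had 8.80, 8.80 and 9.31 in hypoxia, against 9.47, 9.66 and 9.71 in normoxia. The FG groups did not overlap and the change of -0.64 ± 0.14 passed (adjusted p = 0.0157), whereas -0.20 ± 0.14 in L3.6pl did not (adjusted p = 0.485). The FG call was lost without FG hypoxia replicate 1 (0.0618) or 2 (0.0749) or FG normoxia replicate 2 (0.057) or 3 (0.0551). FANCE, FANCF and FANCG, other core subunits, were called in neither line with or without the normoxia replicates 1. FANCI, the substrate of the complex, stood at -1.09 ± 0.50 in L3.6pl and -0.52 ± 0.50 in FG, and passed without those arrays at -1.34 (adjusted p = 0.0176) and -1.20 (adjusted p = 0.0257) in the same order.

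The measured mismatch repair genes, MSH6 and MSH3, which each complete a mismatch sensor with the same partner, did not move together. MSH6, whose sensor reads single mispairs, fell by 0.81 ± 0.18 in L3.6pl (1.75-fold, adjusted p = 0.0241) and by 0.64 ± 0.18 in FG (1.56-fold, adjusted p = 0.0488). The L3.6pl call was lost in 4 of 12 fits without 1 array and the FG call in 10 of 12, with adjusted p up to 0.106 without L3.6pl hypoxia replicate 2 and 0.165 without FG hypoxia replicate 2. It was called in both lines when the normoxia replicates 1 were left out. The 2 bright MSH6 probe sets both fell with a call in both lines, and the 2 dim ones lay between -0.10 and 0.08. MSH3, whose sensor reads larger loops, had 8.22, 8.20 and 8.16 in L3.6pl hypoxia, against 8.01, 7.83 and 7.90 in L3.6pl normoxia. In FG it had 7.62, 7.62 and 7.66 in hypoxia, against 7.46, 7.49 and 7.60 in normoxia. Hypoxic arrays were the higher ones in both lines, but neither 0.28 ± 0.08 in L3.6pl (adjusted p = 0.0652) nor 0.12 ± 0.08 in FG (adjusted p = 0.438) passed. In the fit that left out both normoxia replicates 1, MSH3 was called higher in L3.6pl at 0.33 (adjusted p = 0.0475).

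Leaving out the normoxia replicates 1 raised the number of repair genes called lower to 14 of 28 in L3.6pl, against 5.65% of all genes, and to 15 of 28 in FG, against 6.95%. In the higher direction, 1 was called in L3.6pl, against 5.29% of all genes, and 0 in FG, against 4.69%. Of the genes called lower, 13 passed in both lines, a count for which the share over all genes was not taken. In L3.6pl all 8 genes called with all arrays stayed called and 6 were added, and in FG 7 of the 8 stayed and 8 were added. The genes added in both lines were BLM, CHEK2, EXO1, FANCI, RAD51AP1 and RAD51C, and in FG also BRIP1 and RAD54B. The arrays left out were low for many of the repair genes. Replicate 1 lay below both other normoxic arrays for 18 of 28 in L3.6pl and 20 of 28 in FG. Over all genes the shares were 42.5% and 41.6%. Leaving those arrays out raises the normoxic mean of such genes, so the added calls are no independent support for a fall. Without FG normoxia replicate 1 alone, 13 members were called in FG, against 10.5% of all genes, and 14 in L3.6pl, against 9.35%, through the estimate of spread that the groups share. When L3.6pl hypoxia replicate 3 was left out too, a fit chosen after seeing the data, 18 were called lower in L3.6pl, against 13.2% of all genes, and 17 in FG, against 12.5%. With array quality weights, 19 were called in L3.6pl, against 26.3% of all genes, and 18 in FG, against 29%. The FG count was 5 without hypoxia replicate 1 or 3 (7.19% and 9.18% of all genes), 3 without normoxia replicate 2 or 3 (6.7% and 7.68%) and 2 without hypoxia replicate 2 (5.2%). The L3.6pl count was 4 without hypoxia replicate 2 or normoxia replicate 3 (2.88% and 3.71% of all genes) and 3 without normoxia replicate 2 (2.57%).

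The arrays that were low or high for genes of cycling cells were largely so for the repair genes. The mean log2 intensity of the 28 repair genes was 7.54, 7.27 and 7.71 in L3.6pl hypoxia, against 8.02, 8.28 and 8.26 in L3.6pl normoxia. In FG it was 7.71, 7.45 and 7.43 in hypoxia, against 7.60, 8.18 and 8.24 in normoxia. FG normoxia replicate 1 lay among the FG hypoxic arrays here and below them for the cycling genes, and L3.6pl hypoxia replicate 3 was the highest hypoxic array of its line for both. Of the 24 cycling genes, 3 were called lower in L3.6pl, against 2.97% of all genes, and 0 in FG, against 6.47%, with medians of -0.93 and -0.18. When the normoxia replicates 1 were left out, 18 were called lower in L3.6pl, against 5.65% of all genes, and 9 in FG, against 6.95%. The arrays left out were the ones that stood apart in these same 24 genes, so that rise is no independent support. The part of a changed share of cycling cells in these results was not tested.

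**Figure D4:**
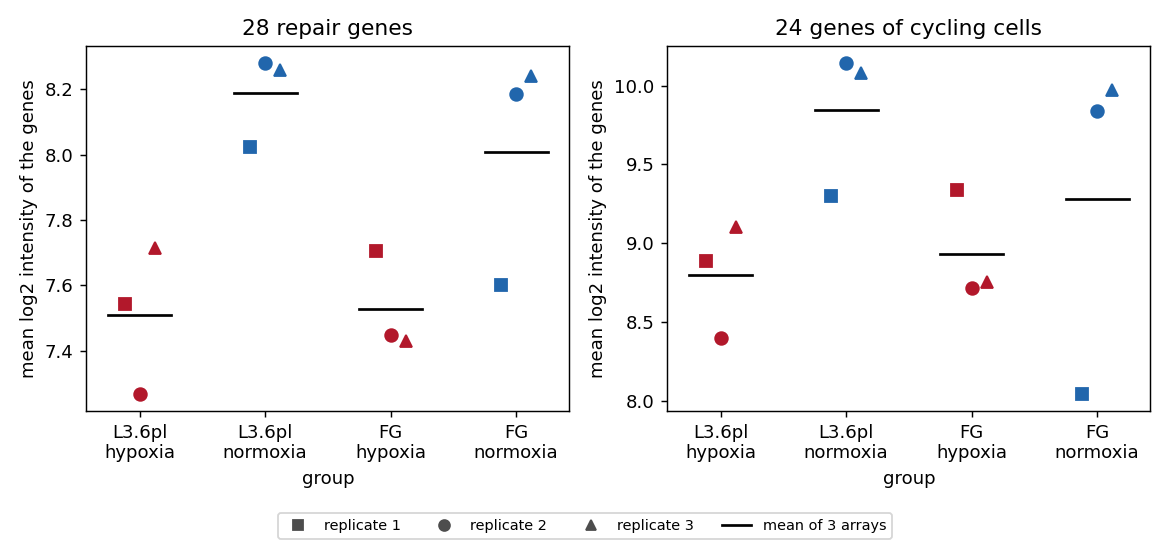
Mean log2 intensity per array of the 28 repair genes (left) and of 24 genes of cycling cells (right) in the 4 groups; marks give the replicate and bars the mean of 3 arrays. FG normoxia replicate 1 lies far below the other FG normoxic arrays in both panels, at 7.60 and 8.04.

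Between the lines, 4 genes passed in both oxygen conditions: PALB2 and MSH3 were higher in L3.6pl than in FG, and NBN and RAD54B were lower. In hypoxia, 4 of 28 repair genes were called higher and 3 lower in L3.6pl, against 10% and 6.72% of all genes, with a median difference of 0.03, against 0.02 over all genes. In normoxia 2 were called higher and 2 lower, against 5.16% and 5.54%, with a median of 0.20, against 0.02. Given the background, these counts say nothing particular of the repair genes. Without the normoxia replicates 1, the counts in hypoxia were again 4 higher and 3 lower, against 11.9% and 8.4% of all genes, and in normoxia 1 higher and 2 lower, against 3.77% and 4.15%. The arrays of the lines did not overlap for 6 members higher and 4 lower in hypoxia, against 18.2% and 13.9% of all genes, and for 7 higher and 2 lower in normoxia, against 15% and 13.1%.

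**Figure D5:**
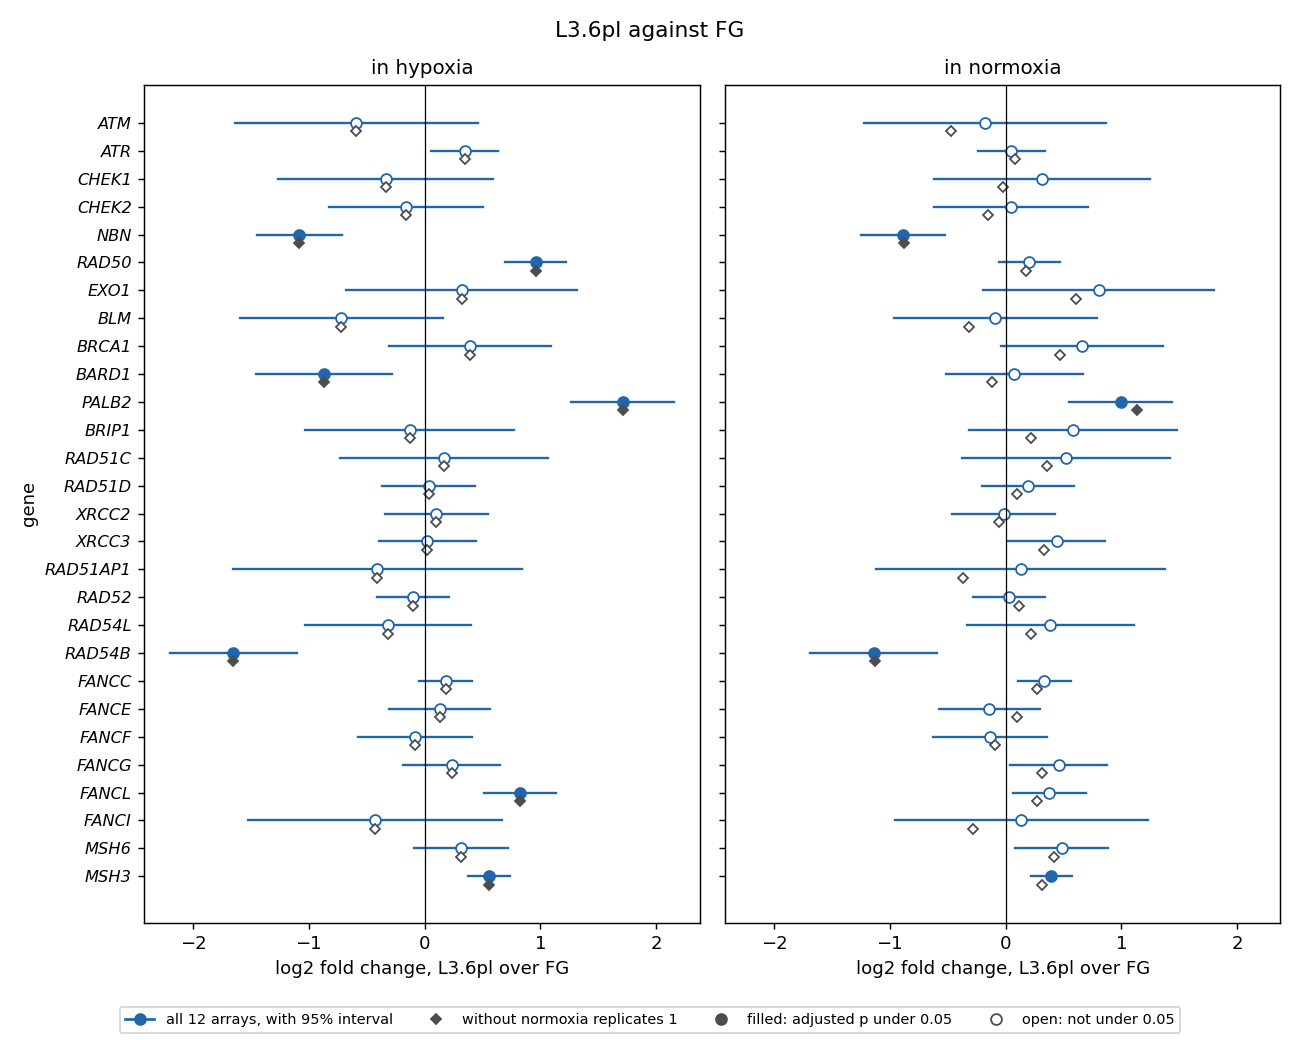
Log2 fold change of L3.6pl over FG for each repair gene in hypoxia (left) and in normoxia (right), with marks as in the plot of hypoxia effects: circles for all 12 arrays with 95% intervals, diamonds without normoxia replicates 1, filled where the adjusted p was below 0.05. PALB2 lies farthest right and RAD54B farthest left in both panels.

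PALB2 had the largest difference in hypoxia and RAD54B in normoxia, from the array values given above. PALB2 was higher in L3.6pl by 1.71 ± 0.20 in hypoxia (3.27-fold, adjusted p = 0.000256) and by 0.99 ± 0.20 in normoxia (1.99-fold, adjusted p = 0.00958). MSH3 was higher by 0.56 ± 0.08 in hypoxia (1.47-fold, adjusted p = 0.000887) and by 0.40 ± 0.08 in normoxia (1.32-fold, adjusted p = 0.00995). The lowest L3.6pl array lay above the highest FG array for both genes within each oxygen condition. All 3 MSH3 probe sets were positive, 1 of them called, in each condition, and without the normoxia replicates 1 the normoxic MSH3 difference was no longer called (adjusted p = 0.0942). RAD54B was lower in L3.6pl, at -1.65 ± 0.25 in hypoxia (3.14-fold, adjusted p = 0.00113) and -1.14 ± 0.25 in normoxia (2.2-fold, adjusted p = 0.0143), and the normoxic call was lost without FG normoxia replicate 2 (adjusted p = 0.0629) or L3.6pl normoxia replicate 1 (adjusted p = 0.055). NBN was lower as well, at -1.08 ± 0.17 in hypoxia (2.11-fold, adjusted p = 0.00123) and -0.88 ± 0.17 in normoxia (1.85-fold, adjusted p = 0.00596). Unlike its hypoxia change, the NBN line difference was negative in all 5 probe sets, 4 of them called in hypoxia and 3 in normoxia.

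In hypoxia, RAD50 and FANCL were also higher in L3.6pl, at 0.96 ± 0.12 (1.95-fold, adjusted p = 0.000333) and 0.82 ± 0.14 (1.77-fold, adjusted p = 0.00255), and BARD1 was lower at -0.87 ± 0.27 (adjusted p = 0.048). The RAD50 and FANCL arrays of the lines did not overlap. The BARD1 call was lost in 9 of 12 fits without 1 array, with adjusted p up to 0.176 without FG hypoxia replicate 1. In normoxia, RAD50 stood at 0.20 ± 0.12 (adjusted p = 0.378) and FANCL at 0.38 ± 0.14 (adjusted p = 0.132). BLM had 7.03, 6.30 and 7.21 in L3.6pl hypoxia, against 7.91, 7.56 and 7.23 in FG hypoxia, arrays that lay just apart, and its difference of -0.72 ± 0.40 did not pass (adjusted p = 0.279). ATM had 8.02, 8.01 and 6.55 in L3.6pl hypoxia, against 8.30, 8.67 and 7.37 in FG hypoxia, with overlapping arrays and a difference of -0.59 ± 0.47 (adjusted p = 0.486). The largest differences in normoxia without a call were EXO1 at 0.81 ± 0.45 and BRCA1 at 0.66 ± 0.32.

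Same-numbered arrays of the lines deviated together within each oxygen condition, so the line comparisons were also fitted with the replicate number as a block within each condition, a fit chosen after the data were seen. In normoxia this block gave 10 called members, 8 higher and 2 lower in L3.6pl, against 12.2% and 10.9% of all genes, adding BRCA1 (adjusted p = 0.0107), EXO1 (0.0247), MSH6 (0.0284), FANCL (0.0292), FANCG (0.0327) and XRCC3 (0.0359), all higher in L3.6pl. In hypoxia it gave 8, against 30% of all genes, adding BLM as lower (adjusted p = 0.0433). With array weights 10 were called in normoxia, against 33.5% of all genes.

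No repair gene passed the test of a difference in hypoxia effects between the lines in the limma fit of all arrays. In that fit 0 of 28 were called, against 0.0253% of all genes. An unadjusted p below 0.05 was reached by 4 of the 28, against 7.22% of all genes. Without the normoxia replicates 1 the count was 0 as well, against 0.0253% of all genes. The largest difference of effects, L3.6pl minus FG, was BARD1 at -0.94 ± 0.38 (adjusted p = 0.605), followed by RAD50 at 0.76 ± 0.17 (adjusted p = 0.207). With the block within each oxygen condition RAD50 was called (adjusted p = 0.0465), against 3.55% of all genes, and with array weights as well (adjusted p = 0.0243), against 2.13% of all genes. No other member was called by either.

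Repair genes outside the list were counted in the same way. Of 39 further recombination, Fanconi and mismatch repair genes, 7 were called lower and 0 higher in L3.6pl hypoxia, against 2.97% and 3.89% of all genes, with a median of -0.32. In FG hypoxia 11 of the 39 were called lower and 1 higher, against 6.47% and 4.24%, with a median of -0.35. Of 29 genes of end joining and of base and nucleotide excision repair, 1 was called lower and 1 higher in L3.6pl, near the same background, with a median of -0.26. In FG 5 of the 29 were called lower and 0 higher, against 6.47% and 4.24% of all genes, with a median of -0.28. Between the lines, 3 of the 39 further genes were called higher and 1 lower in L3.6pl in hypoxia, against 10% and 6.72% of all genes, and 0 higher and 2 lower in normoxia, against 5.16% and 5.54%.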

How the data were processed

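Expression was measured on 12 arrays, 3 in each group. The deposited values are linear intensities that the authors computed by RMA, according to the submitters' processing notes; its version and the way log2 output became linear are not given in the sources used here. Because the medians of the arrays were close, 39.1 to 41.4 intensity units, log2 was taken with no further normalization. Of 54675 probe sets, 62 were controls, 41091 had exactly 1 gene in the platform annotation, 1801 had several and 11721 had none; the brightest probe set by mean over all arrays was used per gene. Groups come from the sample titles. One limma 3.58.1 model (R 4.3.3) with a mean per group was fitted to 19775 genes and moderated with eBayes (8 residual and 2.72 prior degrees of freedom), and called genes had a Benjamini-Hochberg adjusted p below 0.05. An exact two-sided test of 3 arrays against 3 cannot go below 0.1, and the number of arrays limits precision. The fit was tested on simulated data. The members and gene lists were chosen with earlier results of these data known.

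Values in every array are given, per comparison, for the 6 called members of smallest adjusted p and the 2 uncalled members of largest change, where there were as many. Promoter windows were matched by symbol. Deviations from group means of same-numbered arrays of the lines correlated at 0.735, 0.528 and 0.675 in normoxia and 0.358, 0.444 and 0.462 in hypoxia, whereas hypoxia and normoxia of 1 line gave -0.217 to 0.413, so numbers were treated as pairs between lines only. Alternatives were cyclic loess, centring on medians, the mean of probe sets, a filter on dim genes, an intensity trend with robust moderation, array weights, a replicate block, only the groups compared, an adjusted p below 0.01, leaving out each array, and leaving out the normoxia replicates 1.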

Additional observations from a re-analysis of the deposited data

Results flagged for a closer look

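RAD50 was singled out because all hypoxic arrays lay above the normoxic ones in L3.6pl and below them in FG. The difference of its hypoxia effects, L3.6pl minus FG, was 0.76 ± 0.17 on the log2 scale. The difference itself was tested by the interaction in the limma model and did not pass with all arrays (adjusted p = 0.207), whereas it passed with array weights (adjusted p = 0.0243) and with the replicate block within each oxygen condition (adjusted p = 0.0465). The rise in L3.6pl was seen in 1 of 3 RAD50 probe sets. The difference of effects was positive in all 3, at 0.76, 0.48 and 0.50 from the brightest to the dimmest. With all arrays none of them was called over all probe sets.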

How the results depend on the processing

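None of the 32 changes whose array values the text gives by rule reversed its sign under the settings run; of their 750 values under alternatives, 686 kept their side of the threshold, 41 lost a call and 23 gained one. For hypoxia in L3.6pl, 8 members were called with all arrays (6.86% of all genes). The count was 19 with array weights (26.3%) and 15 without the normoxia replicates 1 (14 lower and MSH3 higher, 10.9%). It was 19 without these arrays and L3.6pl hypoxia replicate 3 (21.1%, chosen after seeing the data). With only the groups compared it was 4 (4.03%), and at an adjusted p below 0.01 it was 3 (2.4%). With 1 array left out it ran from 3 to 14. For hypoxia in FG, 8 were also called with all arrays (10.7% of all genes). The count was 18 with array weights (29%), 15 without the normoxia replicates 1 (11.6%) and 17 without the same 3 arrays (19.6%). With the mean of all probe sets it was 5 (11%), and at an adjusted p below 0.01 it was 2 (4.35%). With 1 array left out it ran from 2 to 13. For L3.6pl against FG in normoxia, 10 were called with array weights (33.5% of all genes), instead of 4 (10.7%). With the replicate block within each oxygen condition 10 were called as well (23.1%). The share of all genes called rose in both settings too. For the difference of the hypoxia effects, 1 was called with array weights (2.13% of all genes) and 1 with that block (3.55%), instead of 0 (0.0253%). With a block on the replicate number common to all groups, the count was 10 for hypoxia in L3.6pl (10.8% of all genes), 9 for hypoxia in FG (15.1%), 6 for the lines in hypoxia (21.4%) and 4 in normoxia (14.2%), and 0 for the difference; between hypoxia and normoxia the samples share only a number. Calls at adjusted p between 0.01 and 0.05 rest on 3 arrays per group and turn on single arrays, as given with each gene. Uncalled changes did turn sign without the normoxia replicates 1: ATM in L3.6pl (0.26, against -0.12 with all arrays), CHEK1 in FG (-0.25, against 0.32), FANCE in FG (0.05, against -0.21), RAD52 in L3.6pl (-0.08, against 0.02) and RAD54L in FG (-0.18, against 0.11), and for the lines in normoxia FANCI (-0.29, against 0.14), RAD51AP1 (-0.37, against 0.13), CHEK1 (-0.02, against 0.31), CHEK2 (-0.15, against 0.04), BARD1 (-0.12, against 0.07) and FANCE (0.10, against -0.14). The cause of these shifts was not tested.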

Other observations

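NBN and RAD54B, both lower in L3.6pl than in FG, lie on chromosome 8, and the genes next to them were looked at after their values were seen. Of the 10 nearest measured genes on each side of NBN, 5 of 20 were called lower and 0 higher in L3.6pl in hypoxia, and 3 lower and 0 higher in normoxia, with medians of -0.16 and -0.22. Of these 20, 18 were negative in hypoxia and 16 in normoxia. Of the 20 nearest to RAD54B, 4 were called lower and 1 higher in hypoxia, and 6 lower and 1 higher in normoxia, with medians of -0.14 and -0.38. Here 14 of 20 were negative in hypoxia and 15 in normoxia. The 19 measured genes between NBN and RAD54B all belong to these 2 sets of neighbours and are not a separate set. Of them, 14 were negative in each condition, with medians of -0.14 in hypoxia and -0.17 in normoxia. In hypoxia 2 of the 19 were called lower and 1 higher, and in normoxia 3 lower and 1 higher. Of the 20 nearest to PALB2, on chromosome 16, 4 were called higher and 0 lower in L3.6pl in each condition, and of the 20 nearest to MSH3, on chromosome 5, 5 were called higher and 0 lower in hypoxia and 3 higher and 0 lower in normoxia. Over all genes, 6.72% were called lower and 10% higher in L3.6pl in hypoxia, and 5.54% lower and 5.16% higher in normoxia. Counts around some other members, picked after all were seen, were as follows. In hypoxia, 6 of the 20 nearest to RAD54L were called higher and 0 lower, with RAD54L itself at -0.32. For XRCC3, at 0.02 in hypoxia, 6 of 20 were called higher and 2 lower. For BARD1, at 0.07 in normoxia, 5 of 20 were called lower and 2 higher. Around XRCC2, at -0.02 in normoxia, 16 of 20 were negative. The 20 nearest to FANCE had none called in either condition. DNA copy number was not analysed here.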
